A study of Mus musculus with 6 samples.

Results

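The liver X receptor (LXR) genes and their classical sterol efflux targets were examined in tendon cells exposed to medium conditioned by sensory ganglia. The 7 genes were taken by symbol from the deposited expression table of 24413 genes, and all 7 were present. They are Nr1h2 and Nr1h3, which encode the receptors LXR-beta and LXR-alpha, and the target genes Abca1, Abcg1, Lpcat3, Mylip and Apoe.

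RNA was sequenced from 2 groups of 3 libraries each. Cells were isolated from the Achilles tendons of 3 male mice aged 12 weeks and sorted for the tdT reporter. All groups carried the same alleles, Tppp3ECE/+, R26RtdT-CreERT2 (as the labels spell it) and Scx-GFP, so the reporter was tied to cells with a history of Tppp3 expression. Control cells stood for 24 h in medium with 1% FBS (fetal bovine serum). Conditioned cells stood for 24 h in medium harvested from dissociated dorsal root ganglia (DRG) of 3 male C57BL/6J mice aged 12 weeks, which had grown for 4 to 5 days with 5-fluoro-2-deoxyuridine and uridine at 20 µM before the change to medium with 1% FBS. No label ties a library to an animal. The spread that each p-value is set against is that of the libraries as labelled, and a share of it may be technical.

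LXRs are nuclear receptors that are switched on by oxidised forms of cholesterol and by late intermediates of cholesterol synthesis. They bind DNA with a retinoid X receptor (RXR) partner at a direct repeat of a hexamer separated by a short spacer, and they raise genes that move cholesterol out of the cell, carry it away, remodel membrane phospholipids and limit uptake of lipoproteins. LXR-beta is made in most cell types, while LXR-alpha is best known from liver, fat and macrophages.

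Values are FPKM (fragments scaled to gene length and library size) as the authors deposited them, with mean ± SD over n = 3 libraries. A log2 fold change is conditioned minus control on the log2(FPKM + 1) scale with its standard error (SE), and it understates the change of genes near 1 FPKM. The test covered the 11678 genes whose 6 values averaged 1 FPKM or more, with adjusted p-values from limma (Benjamini-Hochberg over all tested genes) and a threshold of 0.05. The libraries held 18774913 to 26061832 fragments, recovered from the FPKM values. In bulk RNA, fewer cells of a type and less RNA per cell cannot be told apart. Tendon fibroblast genes such as Col1a1, Fmod, Scx and Tnmd were present in every library, while Tppp3 itself was at 0.903 FPKM in control and 0.908 FPKM in conditioned libraries. Of the 11 tested tendon fibroblast markers, 8 fell with conditioned medium in limma, 0 rose and 3 did not pass. Of all tested genes, 2.49% fell. The 3 were Pdgfra, Mkx and Scx, with log2 fold changes of 0.17, 0.01 and -0.18 (limma adjusted p = 0.062, 0.98 and 0.073). For Pdgfra, every conditioned library was above every control library.

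Of the 7 genes, 6 were tested, 1 rose (Lpcat3), 0 fell in limma and 5 did not pass. With voom, a weighted limma fit on recovered fragments, 2 rose and 0 fell, and 0 fell at an unadjusted limma p below 0.05. Among all genes tested, 4.04% rose and 2.49% fell in limma. In voom 5.33% rose, and 521 of the 11678 genes fell. The median log2 fold change of the 6 tested genes was 0.17, against 0.005 over all tested genes, and 4 of the 6 had an unadjusted p below 0.05 with a value above 0, which 11.2% of all tested genes had. The value was above 0 for 5 of the 6, as for 52.0% of all tested genes. Counting Abcg1, 5 of the 7 genes had every conditioned library above every control library, and 4 of the 6 tested genes did, against 14.3% of all tested genes. The 2 genes whose groups overlapped were Nr1h3 and Abca1.

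**Figure D1:**
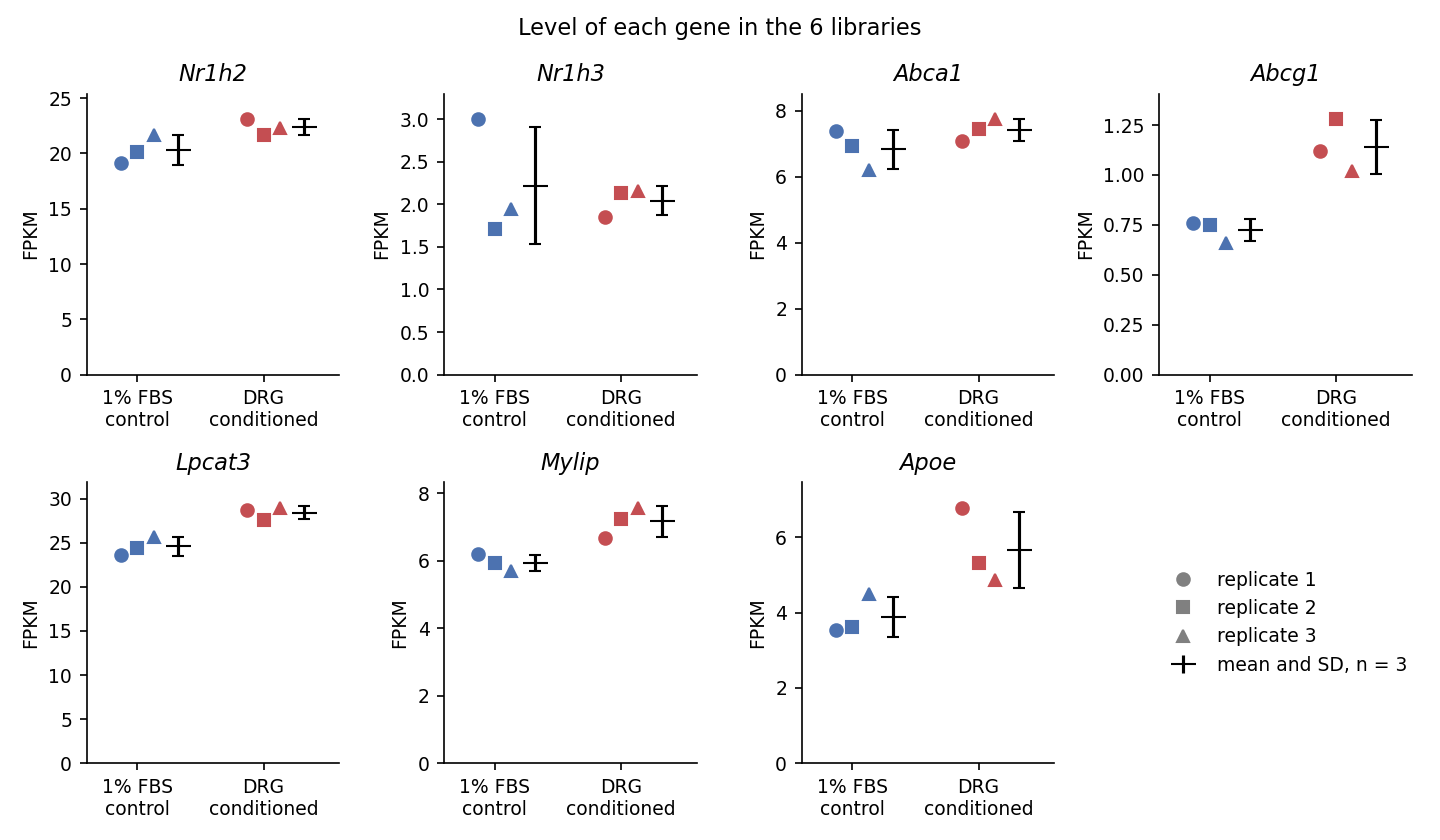
FPKM (vertical axes, each from 0) of the 7 genes in the 3 control libraries (blue) and the 3 conditioned libraries (red), with symbols for the replicate number and black bars for mean and SD. The groups are apart for Nr1h2, Abcg1, Lpcat3, Mylip and Apoe and overlap for Nr1h3 and Abca1. Control replicate 1 stands at 3.00 FPKM for Nr1h3, above the other 5 libraries.

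In level, the receptor pair was far from even. Nr1h2 (chromosome 7 from 44549616 to 44553951, minus strand, mm10) had 19.1, 20.1 and 21.7 FPKM in control replicates 1, 2 and 3, and 23.1, 21.7 and 22.3 FPKM in conditioned replicates 1, 2 and 3. The lowest conditioned library lay only just above the highest control library. The log2 fold change of 0.14 ± 0.05 SE (95% interval 0.01 to 0.26) did not pass, with a limma adjusted p of 0.20.

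Nr1h3 (chromosome 2 from 91184061 to 91202834, minus strand, mm10) had 3.00, 1.71 and 1.95 FPKM in control and 1.85, 2.13 and 2.15 FPKM in conditioned libraries. The conditioned libraries lay within the control range, which control replicate 1 set at its upper end. The log2 fold change was -0.06 ± 0.14 SE (95% interval -0.39 to 0.27, limma adjusted p = 0.86), and without control replicate 1 it was 0.10. The gene was covered by 99 to 175 fragments per library, against 1369 to 1765 for Nr1h2. Its neighbour Acp2 lies on the opposite strand after a gap of 50 bases, and the strand setting of the authors' counting is not given in the sources used here.

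Per length, Nr1h2 exceeded Nr1h3 in all 6 libraries. The ratio of their FPKM values was 6.36, 11.7 and 11.1 in control replicates 1, 2 and 3, and 12.5, 10.2 and 10.4 in conditioned replicates. LXR-beta mRNA was thus the more abundant receptor message in both media. The log2 ratio did not differ between media beyond its spread (3.23 ± 0.49 in control and 3.46 ± 0.17 in conditioned libraries, two-sided exact permutation p = 0.80, adjusted p = 0.80 over the 2 ratios tested), and the difference of 0.22 became -0.06 without control replicate 1. With 3 libraries against 3, that test cannot go below 0.10.

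ABCA1 and ABCG1 are membrane transporters that hand cholesterol to extracellular acceptors, ABCA1 to lipid-poor apolipoproteins and ABCG1 to formed HDL particles. Both are textbook LXR targets. Abca1 (chromosome 4 from 53030787 to 53159895, minus strand, mm10) had 7.38, 6.92 and 6.21 FPKM in control and 7.07, 7.44 and 7.75 FPKM in conditioned libraries. The groups overlapped, with control replicate 1 above conditioned replicate 1. The log2 fold change was 0.11 ± 0.07 SE (95% interval -0.05 to 0.26, limma adjusted p = 0.44), and Abca1 was well covered, with 1297 to 1885 fragments per library. It ran from 0.05 without control replicate 3 to 0.16 without control replicate 1, and did not pass in any of 17 alternatives.

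Abcg1 (chromosome 17 from 31057675 to 31117988, plus strand, mm10) was the lowest of the 7 genes and lay under the level filter, with a mean of 0.931 FPKM. It had 0.762, 0.750 and 0.658 FPKM in control and 1.12, 1.28 and 1.02 FPKM in conditioned libraries. Every conditioned library was above every control library, and the ratio of the group means was 1.57. A two-sided exact permutation test of Abcg1 gave p = 0.10, the smallest that 3 against 3 allows.

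The recovered fragments of Abcg1 were few, 72, 80 and 54 in control and 99, 98 and 97 in conditioned libraries. They rest on a gene length of 4066 bases, the smallest that gives whole numbers, whereas the annotation used here gives 7298 bases of exon. A length that is a whole multiple of it would also give whole numbers, with the fragments multiplied alike, so the counts of Abcg1 and the voom result built on them are uncertain by such a factor. With no level filter, the log2 fold change of Abcg1 was 0.31 ± 0.08 SE and did not pass in limma (adjusted p = 0.142, where 1.34% of genes rose). A voom alternative on recovered fragments was chosen after seeing the data. It dropped the FPKM filter and kept the 16041 genes with at least 30 fragments over the 6 libraries. With it, the log2 fold change of Abcg1 was 0.61 ± 0.19 SE with a voom adjusted p of 0.0496, where 4.03% of genes rose. The call of Abcg1 thus depended on the filter and the scale.

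The ratio of Abca1 to Abcg1 was 9.68, 9.22 and 9.42 in control replicates 1, 2 and 3, and 6.32, 5.81 and 7.62 in conditioned replicates. Every conditioned library lay below every control library. On the log2 scale the ratio was 3.24 ± 0.04 in control and 2.71 ± 0.20 in conditioned libraries, a difference of -0.53 (two-sided exact permutation p = 0.10, adjusted p = 0.20 over the 2 ratios tested, 0.10 being the smallest possible). It stayed between -0.64 and -0.44 when each library was left out.

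**Figure D2:**
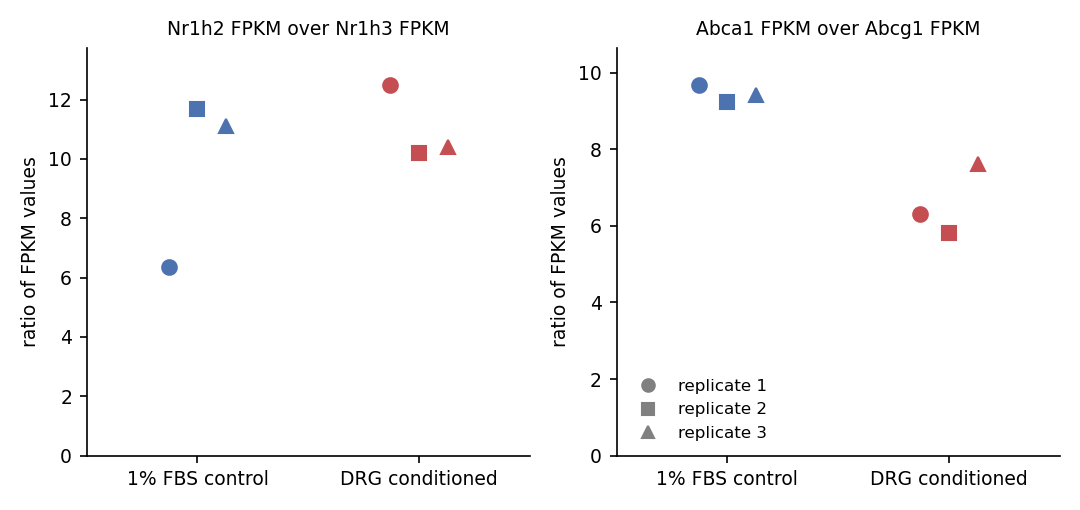
Ratio of Nr1h2 to Nr1h3 (left) and of Abca1 to Abcg1 (right) in FPKM, vertical axes from 0, for each of the 3 control (blue) and 3 conditioned (red) libraries. The receptor ratios overlap, with control replicate 1 lowest at 6.36. The exporter ratios are 9.22 to 9.68 in control and 5.81 to 7.62 in conditioned libraries.

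Promoter sequence is shown for Abca1 and Lpcat3. Abca1 holds the only match to the LXR binding element among the windows of these genes, and only at a loose limit of 3 mismatches. Lpcat3 is the only one of the 7 genes that passed. RefSeq promoter windows (250 bases before to 50 after a gene's start, GRCm38.p6) were found for 6 of the 7 genes, 9 windows in all, with none matched for Abcg1. The LXR element called DR4, a direct repeat of AGGTCA with a spacer of 4 bases of any kind, was searched on both strands with mismatches counted over its 12 fixed bases. With at most 2 mismatches it matched 0 of the 9 windows and 3.02% of 32851 windows of the same length, and with at most 1 mismatch 0 and 0.25%. The planned limit was 2 mismatches. With at most 3 mismatches, looser than planned, it matched 1 of the 9, Abca1, and 21.9% of all windows, so such a match is common. The sequences below are the 250 bases before each start, 5′ to 3′ on the gene's strand, with the match in capitals.
Abca1 (chr4:53159896-53160145, minus strand): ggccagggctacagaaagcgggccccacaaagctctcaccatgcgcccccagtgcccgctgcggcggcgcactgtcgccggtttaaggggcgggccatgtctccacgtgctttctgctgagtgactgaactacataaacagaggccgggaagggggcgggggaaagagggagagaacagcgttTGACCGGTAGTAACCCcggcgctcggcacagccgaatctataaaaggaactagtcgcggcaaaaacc
Lpcat3 (chr6:124662854-124663103, plus strand): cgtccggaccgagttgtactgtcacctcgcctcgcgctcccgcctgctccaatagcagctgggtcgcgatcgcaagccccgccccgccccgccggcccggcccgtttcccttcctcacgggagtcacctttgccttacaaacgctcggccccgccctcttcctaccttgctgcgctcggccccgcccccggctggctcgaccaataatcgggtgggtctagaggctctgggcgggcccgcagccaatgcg

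The Abca1 match lies from base -67 to base -52, counted from the start site, and reads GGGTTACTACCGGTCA on the opposite strand. A match of this kind describes the letters of the window and is not a measurement of binding.

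Lpcat3 encodes a membrane enzyme that places polyunsaturated fatty acids into lysophospholipids and is induced by LXR in liver and gut. It was the highest of the 7 genes (chromosome 6 from 124663027 to 124704418, plus strand, mm10), with 23.6, 24.4 and 25.7 FPKM in control and 28.7, 27.6 and 29.0 FPKM in conditioned libraries. The groups did not overlap. Lpcat3 rose by 15.7% of its control mean, a log2 fold change of 0.20 ± 0.04 SE (95% interval 0.10 to 0.30, limma adjusted p = 0.032), on 1695 to 2222 fragments per library. The value stayed between 0.18 and 0.24 over 17 alternatives, but the call was lost in 8 of them, among them leaving out any library except control replicate 3 (adjusted p of 0.0687 to 0.126). Lpcat3 shares 334 exon bases with Emg1 on the opposite strand, which did not pass (log2 fold change 0.11, adjusted p = 0.46).

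Of the other phospholipid acyltransferase genes, 0 of 12 tested rose and 0 fell in limma, with a median log2 fold change of 0.00, and likewise 0 by voom and 0 at an unadjusted p below 0.05. For the namesakes Lpcat1, Lpcat2 and Lpcat4 the log2 fold change was -0.18, -0.17 and 0.12 (limma adjusted p = 0.32, 0.35 and 0.35). These relatives were picked after their values were seen.

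Mylip encodes IDOL, an LXR-induced ubiquitin ligase that marks lipoprotein receptors for breakdown in the lysosome. Mylip (chromosome 13 from 45389742 to 45412022, plus strand, mm10) had 6.18, 5.93 and 5.69 FPKM in control and 6.68, 7.22 and 7.57 FPKM in conditioned libraries. All 3 conditioned libraries were higher than all 3 control libraries. The log2 fold change was 0.23 ± 0.06 SE (95% interval 0.10 to 0.37), and the limma adjusted p of 0.056 was just over the threshold. With a filter of 5 FPKM, where fewer genes were tested, it was 0.0397.

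Of the IDOL substrates, Vldlr, a receptor for triglyceride-rich lipoproteins, lay under the level filter with 0.587 ± 0.0136 FPKM in control and 0.615 ± 0.0584 FPKM in conditioned libraries, groups overlapping. Receptor protein, on which IDOL acts, was not measured.

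Apoe encodes apolipoprotein E, a secreted lipid carrier and ligand of lipoprotein receptors, made in quantity by macrophages and glia. Apoe (chromosome 7 from 19696109 to 19699188, minus strand, mm10) had 3.54, 3.62 and 4.50 FPKM in control and 6.79, 5.32 and 4.86 FPKM in conditioned libraries. The groups did not overlap, though control replicate 3 and conditioned replicate 3 were close. The conditioned mean was 45.5% above the control mean, with a log2 fold change of 0.44 ± 0.12 SE (95% interval 0.16 to 0.72), above that of 98.0% of tested genes.

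This difference in Apoe did not pass in limma (adjusted p = 0.085). It was 0.32 without conditioned replicate 1, the highest library, and 0.53 on recovered fragments, where it passed (voom adjusted p = 0.0163, with 5.33% of genes rising). Macrophage and glial markers were measured beside it. Of 8 macrophage markers 3 were tested and 0 passed in limma or voom (1 was lower at an unadjusted p below 0.05). Summed over the 8, the control libraries ranged from 6.71 to 7.92 FPKM and the conditioned libraries from 6.69 to 7.02 FPKM. Most of the sum came from Cd14 (2.84 FPKM in control and 3.19 FPKM in conditioned libraries), Lyz2 (2.68 and 1.79) and Cd68 (1.39 and 1.62). The groups of Cd14 and Cd68 overlapped, while Lyz2 was lower without overlap (unadjusted p = 0.0074 and adjusted p = 0.083 in limma). Under the filter, Mrc1 was lower without overlap, with 30 and 4 fragments. Adgre1, C1qa and Ptprc were at or near 0. They had 3, 2 and 1 fragments over the control libraries and 0, 0 and 5 over the conditioned libraries. Of 9 glial markers 1 was tested and did not pass, the sum ranged from 3.48 to 4.08 FPKM for control and from 2.30 to 3.54 FPKM for conditioned libraries, and Sox10 had 0 and 2 fragments. The tested glial marker was S100b, which was lower without overlap (2.42 ± 0.173 and 1.50 ± 0.522 FPKM, unadjusted p = 0.010 and adjusted p = 0.10 in limma). Under the filter, Fabp7 was lower without overlap (0.459 and 0.197 FPKM) and Mbp higher without overlap (0.420 and 0.537 FPKM). The part of these markers in the value of Apoe was not tested.

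Across the 7 genes the order of levels was Lpcat3, Nr1h2, Abca1, Mylip, Apoe, Nr1h3 and Abcg1 in both media by group mean. Lpcat3 stood above Nr1h2 and Apoe above Nr1h3 in every library set, with no overlap within a medium. In conditioned medium the ranges of Abca1 and Mylip overlapped, as did those of Mylip and Apoe. Within each of the 6 libraries, however, Abca1 stood above Mylip. Mylip stood above Apoe in every library except conditioned replicate 1 (6.68 and 6.79 FPKM). These orders were not tested.

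**Figure D3:**
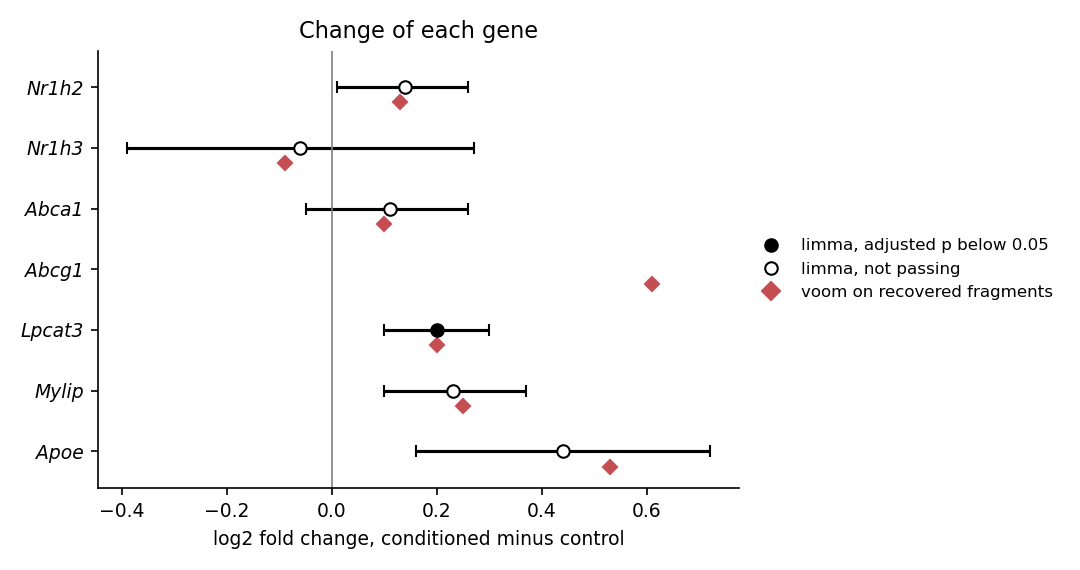
Log2 fold change (horizontal axis, conditioned minus control) of the 7 genes. Circles with 95% intervals are from limma, filled where the adjusted p was below 0.05. Diamonds are from voom on recovered fragments, with a filter of 30 fragments over the 6 libraries in place of the FPKM filter. Lpcat3 is the only filled circle, at 0.20. Abcg1 has a diamond only, at 0.61, since it lay under the level filter.

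Genes most like Abca1 and Apoe in pattern were taken by the smallest root mean square difference of centred log2 values over the 6 libraries, among 7088 genes of at least 5 FPKM. For Abca1 they were Il6st, Usp24 and Rock2 (differences of 0.016, 0.016 and 0.017), with log2 fold changes of 0.11, 0.09 and 0.13, none of which passed in limma (adjusted p of 0.28, 0.49 and 0.25). For Apoe they were Gm12473, the mevalonate enzyme gene Mvd and the glutathione transferase gene Gsta4 (0.080, 0.099 and 0.10). Mvd and Gsta4 rose by 0.40 and 0.48 in limma (adjusted p of 0.0058 and 0.0018), and Gm12473 had 0.39 (adjusted p = 0.053). The difference between media was part of the pattern matched. The log2 fold changes of the genes nearest Abca1 and Apoe therefore follow from the selection and are not separate results. The nearest genes were about 5 to 6 times farther from Apoe than from Abca1. This measure is not scaled to the spread of a gene. Apoe had 176 to 316 fragments per library, against 1297 to 1885 for Abca1, and the part of this in the distances was not tested.

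RXR partners and coregulators assist the receptors on DNA. Of 16 tested, 0 rose and 0 fell in limma, and the same in voom. At an unadjusted limma p below 0.05, 2 were higher and 0 lower, and 11.2% of all tested genes were higher. Their median log2 fold change was 0.06. Rxra, the more abundant RXR gene, had 19.7, 20.0 and 19.5 FPKM in control and 22.0, 21.9 and 21.7 FPKM in conditioned libraries, without overlap, and a log2 fold change of 0.14 ± 0.04 SE (limma adjusted p = 0.057). Rxrb had 10.6 ± 1.26 and 10.7 ± 0.793 FPKM (adjusted p = 0.96).

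Of 6 tested genes that make or remove LXR ligands, 2 rose, 1 fell and 3 did not pass. Over all tested genes, limma called 4.04% higher and 2.49% lower. The log2 fold change was above 0 for 5 of the 6, with a median of 0.12, and Ch25h was the exception. Cyp51, an enzyme of late cholesterol synthesis, rose by 0.21 (limma adjusted p = 0.0061). Ch25h, which makes 25-hydroxycholesterol, had 1.40, 1.38 and 1.84 FPKM in control and 0.953, 0.472 and 0.820 FPKM in conditioned libraries. All conditioned libraries were lower, by -0.54 ± 0.13 SE on the log2 scale (limma adjusted p = 0.043). Ch25h passed the level filter only through its control values, had 143 fragments over the control and 66 over the conditioned libraries, and lost its call in 11 of 16 alternatives, among them leaving out any 1 library (adjusted p up to 0.121). With a pseudocount of 0.1 the value was -0.99.

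Among other known LXR targets, 6 of 15 tested rose, 1 fell and 8 did not pass, with a median log2 fold change of 0.08. The limma shares over all tested genes were 4.04% higher and 2.49% lower. Lpl, lipoprotein lipase, had 3.91, 3.57 and 3.45 FPKM in control and 6.29, 6.62 and 6.24 FPKM in conditioned libraries, and rose by 0.67 ± 0.06 SE (limma adjusted p = 3.4e-04). Apod, a small lipid-binding apolipoprotein, rose by 0.37, and Vegfa, Fasn and Scd1 rose by 0.26, 0.22 and 0.21. These 3 lost their calls when any conditioned replicate was left out, as did Vegfa and Scd1 without control replicate 2. Arl4c, a small GTPase tied to cholesterol transport, fell by 0.44 (adjusted p = 8.7e-04). Srebf1, the lipogenic transcription factor that LXR induces directly, had 27.7 ± 0.675 and 28.8 ± 1.33 FPKM with overlapping groups (log2 fold change 0.06, adjusted p = 0.55).

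The same list holds the transporters Abcg5 and Abcg8, which had 0 fragments over the control libraries and 2 and 3 over the conditioned libraries, and a count of 0 allows up to 3 fragments. Fasn, Scd1 and Lpl are also targets of other lipid regulators, among them SREBP and PPAR factors. Beside Lpl, the 3 adipocyte markers in the table all lay under the level filter, with sums from 0.357 to 0.442 FPKM for control and from 0.739 to 1.07 FPKM for conditioned libraries. Fabp4, a fatty acid binding protein gene, made up most of that sum and was higher without overlap, with 0.374, 0.357 and 0.442 FPKM in control against 0.973, 0.793 and 0.721 FPKM in conditioned libraries, a ratio of means of 2.12 on 121 and 238 fragments. Adipoq and Plin1 were at or near 0, with 0 fragments each in control and 4 and 2 in conditioned libraries. The part of these markers in the value of Lpl was not tested.

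Other lipid transporters of the ABCA and ABCG families had 1 of 5 tested higher and 0 lower in limma. By voom and at an unadjusted p below 0.05, 0 were lower. In limma, 4.04% of all tested genes rose and 2.49% fell. Abca7, a relative of Abca1, had 3.59, 3.84 and 3.69 FPKM in control and 4.42, 4.51 and 4.95 FPKM in conditioned libraries and rose by 0.26 ± 0.06 SE (limma adjusted p = 0.040). The call of Abca7 was lost in 8 of 16 alternatives, leaving out any 1 library included (adjusted p up to 0.123). Among 16 tested genes of sterol storage and transfer, limma called 0 higher and 1 lower, voom called 2 higher and 1 lower, and 4 were higher and 3 lower at an unadjusted p below 0.05. The groups were apart and higher for 4 of the 16, against 14.3% of all tested genes. They were apart and lower for 5, a count for which the share over all genes is not given here. The median log2 fold change was -0.06. The gene that fell was Cav1, caveolin, by 0.15 (adjusted p = 0.047), with the call lost in 10 of 17 alternatives, again with any 1 library left out.

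Of 10 tested apolipoprotein and receptor genes, 5 rose, 0 fell (0 by voom and at an unadjusted p below 0.05) and 5 did not pass. Limma called 4.04% of all tested genes higher and 2.49% lower. Apol9b, Apol9a and Apol6, intracellular apolipoprotein L genes known to respond to interferon, rose by 0.98, 0.83 and 0.70 (limma adjusted p of 7.6e-05, 3.3e-04 and 1.5e-04). Apol9a and Apol9b are near-identical copies, so the authors' counting could split their fragments and the value of each is uncertain. Apod, given above, also rose. Lrp1, a large endocytic receptor for apolipoprotein E, did not pass, ranging from 245 to 273 FPKM over control and from 257 to 258 FPKM over conditioned libraries.

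Beside these, of 27 genes of cholesterol synthesis and its SREBP control, 15 rose, 0 fell in limma and 12 did not pass. Voom called 1 lower, and 1 was lower at an unadjusted p below 0.05. The median log2 fold change of the 27 was 0.23, against 0.005 over all tested genes. Of all tested genes, 4.04% rose and 2.49% fell in limma. Acat2, Mvd and Pmvk rose by 0.42, 0.40 and 0.37. Srebf2, the factor that drives the set, had 40.4 ± 0.692 and 42.6 ± 1.19 FPKM. It was higher without overlap but did not pass (log2 fold change 0.07, limma adjusted p = 0.32). The set of synthesis genes is the arm that cells raise when sterol is low, and LXR targets the arm raised when oxidised sterol is high. Both lists and the 7 genes come from the same 6 libraries, so their counts are not separate experiments.

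**Figure D4:**
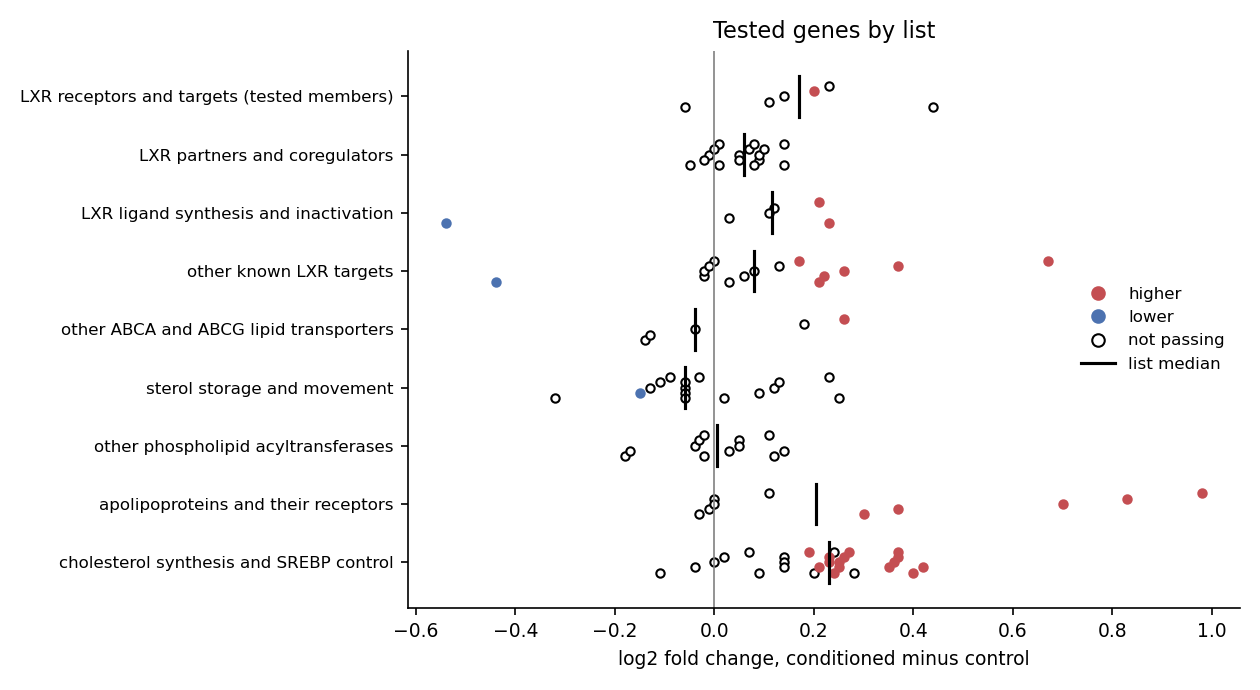
Log2 fold change (horizontal axis, conditioned minus control) of each tested gene by list, with genes that rose in red, genes that fell in blue, others open and list medians as black lines. The medians lie at 0.17 for the 6 tested LXR genes, 0.08 for other known LXR targets and 0.23 for cholesterol synthesis, against 0.005 over all genes tested.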

How the data were processed

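Poly(A) RNA libraries were sequenced as paired ends, per the labels' protocols. The authors deposited FPKM values per gene and library, and HISAT2 2.0.5, CASAVA and the mm10 build appear in the submitters' processing notes without a role. Which counting program, annotation release and strand setting were used is not given in the sources used here. The 7 genes and all gene lists were chosen with earlier results of these data known. Values were tested as log2(FPKM + 1) with limma 3.58.1 in R 4.3.3 (trend and robust prior, no covariate, two-sided), for genes averaging 1 FPKM or more. Whole fragments were recovered for 24413 of 24413 genes within a tolerance of 0.01 fragment, taking the GENCODE M21 exon length where it gave whole numbers and otherwise the smallest length that did, or, below about 30 fragments, the length nearest the annotation. Their sums came within 1.07% of the authors' divisor. Recovered fragments were used for depth and for voom, not for the main test. The limma fit was tested on simulated data with changes of 1.5-fold and 2-fold. It recovered 82.3% and 94.5% of them, and 5.45% of calls were false. Smaller changes, such as that of Lpcat3, were not simulated. Alternatives were other pseudocounts (0.1 and 0.5), filters, scalings and priors, a replicate block, voom, and leaving out each library. Named genes are the 7, a fixed set (Rxra, Rxrb, Ch25h, Srebf1, Vldlr and Srebf2 among them), up to 6 of the largest passing changes per list, and the 3 genes nearest Abca1 and Apoe in pattern. Some genes that this rule names are not reported here, though the counts per list include them. Members absent from the table were not analysed here. Python 3.11.15, numpy 2.4.6, pandas 2.3.3, scipy 1.17.1 and matplotlib 3.10.9 were used.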

Additional observations from a re-analysis of the deposited data

How the results depend on the processing

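The log2 fold changes of Nr1h2, Abca1, Lpcat3, Mylip and Apoe stayed above 0 in every alternative run, and that of Nr1h3 (-0.06) became 0.10 without control replicate 1. Lpcat3, at 0.20, lost its call with no level filter (0.20, with 492 genes called, 165 of them lower, and 0 of the 7 genes) and with a plain prior without trend (0.20, with 0 of the 7 called). With a filter of 5 FPKM, Mylip at 0.23 passed and 2 of the 7 were called. With voom on recovered fragments, Apoe at 0.53 passed, 2 of the 7 were called and 521 genes were lower. Another voom run had a filter of 30 fragments over all libraries in place of the FPKM filter. In it, 1204 genes were called, 557 lower, with 3 of the 7, among them Apoe at 0.53 and Abcg1 at 0.61. Leaving out each library gave 394 to 678 genes called, 265 to 426 higher and 129 to 252 lower, and 0 to 1 of the 7. It gave 0.18 to 0.24 for Lpcat3, -0.18 to 0.10 for Nr1h3 and -0.06 to 0.38 for the log2 ratio of Nr1h2 to Nr1h3. Rxrb, at 0.01, became -0.0041 with quantile normalization, -7.3e-05 and -1.2e-06 with voom, and -0.08 to 0.07 with each library left out, -0.04 and -0.08 coming without conditioned or control replicate 1. The cause of these shifts was not tested, except that filters change how many genes are adjusted over.

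Libraries of the same replicate number showed no shared deviation (correlations of deviations of -0.095, -0.008 and -0.048 for numbers 1, 2 and 3). For unlike numbers the correlations ran from -0.032 to 0.073. Such values cannot settle whether the libraries were paired, and no label says so. With the replicate block, 390 genes were called, 259 higher and 131 lower, and 0 of the 7, Lpcat3 having 0.20 with an adjusted p of 0.103. Depth limits Abcg1 and Nr1h3 most, at 54 to 175 fragments per library.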
